A study of Homo sapiens with 4 samples.

Results

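The SOX, FOX, TBX and GATA genes encode transcription factors that set cell identity in the embryo and in adult tissues. Members were the rows whose gene symbol was SOX or TBX with a number, FOX with a class letter and a number, or GATA1 to GATA6, with no filter on expression. There were 72 of them among 25133 rows with a symbol, made up of 41 FOX, 14 SOX, 11 TBX and 6 GATA genes. The RNA came from lentivirally infected MDA-MB-231 cells, a human line established from a breast cancer. The cells carried a short hairpin against JARID2 (shJARID2, genotype given as JARID2 knockdown) or a scrambled hairpin (shSCR, genotype given as WT), with 2 libraries per group. The labels do not say whether libraries of the same group are separate cultures, nor whether more than 1 hairpin sequence was used. The p-values therefore cover no more than the variation among the 4 libraries.

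JARID2 joins Polycomb repressive complex 2 (PRC2) as an accessory protein, and PRC2 places the repressive mark H3K27me3 on histones. Genes of developmental transcription factors are classical PRC2 targets, many of them with CpG-rich promoters that are kept off outside their own lineage. SOX proteins bind DNA through an HMG box, FOX proteins through a forkhead domain, TBX proteins through a T-box and GATA proteins through zinc fingers. In breast tissue, FOXA1 and GATA3 are known as luminal factors that work with the oestrogen receptor, and SOX9 and FOXC1 are better known from progenitor and basal cells.

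The deposited values were FPKM, a read level adjusted for gene length and library depth. Steps between low values gave depths of about 12.9 M and 12.8 M reads in shJARID2 replicates 1 and 2, and 15.5 M and 16.2 M in shSCR replicates 1 and 2. JARID2 measured 3.88 and 3.91 FPKM in shJARID2, against 10.8 FPKM in both shSCR libraries (log2 fold change -1.27, SE 0.059, adjusted p = 0.0014, GC-corrected -1.15). Fold changes are shJARID2 over shSCR, on log2(FPKM + 1), so those of low genes are understated. They were tested with limma across 12455 genes with a mean of at least 1 FPKM, with Benjamini-Hochberg adjustment, and an adjusted p below 0.05 counts as a call. Across genes, fold changes fell with the GC content of the transcript (Spearman's rho of -0.67 over 12044 genes, which are not independent replicates). A second value, corrected for GC content in each library, is given for the tested members. It is also given for the tested partner, regulator, target, GATA-type and other T-box genes named. Of 5 genes listed as high in this line, CD44, AXL, CAV1 and MSN ranged from 68.9 to 417 FPKM over the 4 libraries, while VIM was at 2.10 to 4.20 FPKM. ESR1, PGR and CDH1 stayed at or below 0.203 FPKM, and ERBB2, KRT8 and KRT18 lay between 6.04 and 15.7 FPKM.

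Most members were low. The counts cover the 72 rows, and another 12 genes that match the rule in GENCODE release 29 were not analysed. None of the 72 was at 0 in all 4 libraries, 48 were low (a mean under 1 FPKM) and 24 were expressed (a mean of at least 1 FPKM). That is 33.3% of the members, where 49.6% of all rows with a symbol reached the same mean. The share was highest among FOX genes, with 18 of 41 expressed, followed by 4 of 14 SOX genes, 1 of 6 GATA genes and 1 of 11 TBX genes. FOXD4, with a mean of 1.12 FPKM, and SOX15, with 0.983, lay nearest to the threshold on either side. Since the mean includes both groups, SOX4, FOXF2 and FOXP2 passed it only through the group in which they were higher.

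Among the 24 expressed members, 4 rose and 15 fell in shJARID2, and 5 did not pass the test. Over all genes tested, 28% rose and 31.6% fell. After GC correction 2 members were called higher and 7 lower, where 22.7% of all genes were called higher and 21.5% lower. The median log2 fold change of the tested members was -0.50 as measured, beside -0.023 for the 12044 tested genes with a GC value, and 0.011 after the correction. In 5 members both shJARID2 libraries lay above both shSCR libraries and in 17 both lay below, where 39.8% and 43.1% of all genes tested did so. Leaving out SOX4, FOXF2 and FOXP2, which passed the filter through 1 group, 3 of 21 rose and 13 fell, a count chosen after seeing the data. Leaving out 1 library gave 2 higher members, or 1 without shSCR replicate 2, and 10 to 13 lower ones. Summed over the 41 FOX members, FPKM came to 193 and 196 in shJARID2 and to 234 and 236 in shSCR. The 14 SOX members summed to 20.3 and 21.7 FPKM in shJARID2 and to 38.5 and 39.0 in shSCR.

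**Figure D1:**
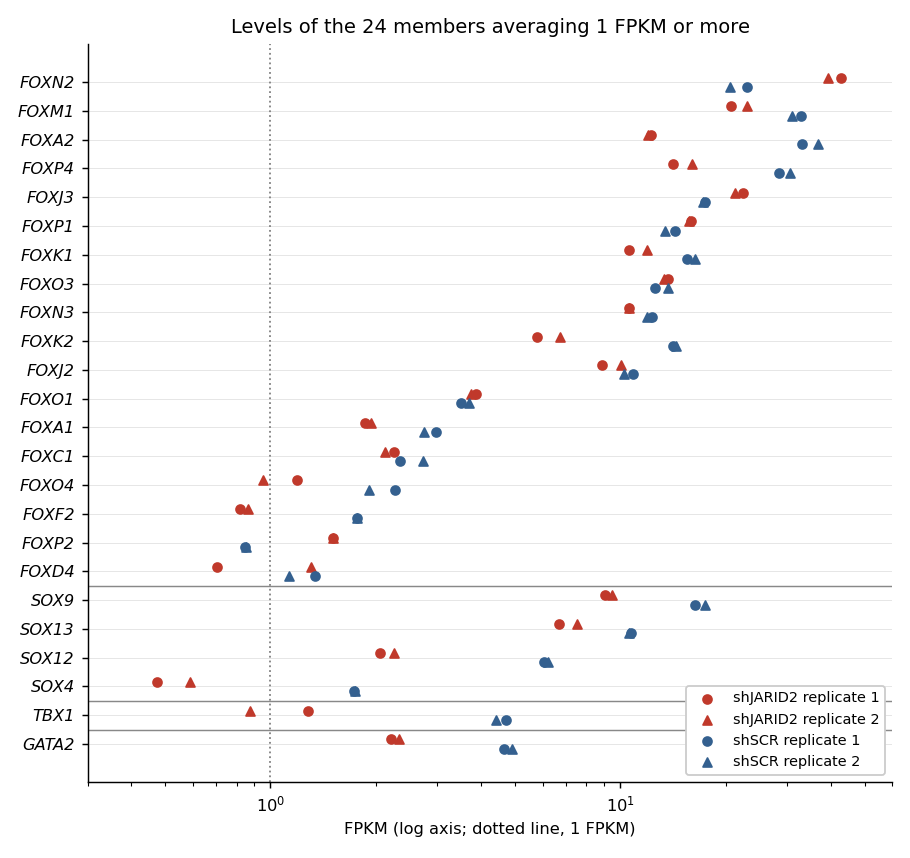
FPKM (log axis) of the 24 expressed members in each of the 4 libraries, grouped as FOX, SOX, TBX and GATA from top to bottom and by mean level within each family. Red points are shJARID2 and blue points shSCR, circles replicate 1 and triangles replicate 2. FOXN2 is the highest in shJARID2, while FOXA2, SOX12, SOX4 and TBX1 show the widest gaps below shSCR.

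FOXA factors open closed chromatin as pioneer factors, FOXA1 in breast and prostate and FOXA2 in liver, lung and gut. FOXA2 measured 12.2 and 12.0 FPKM in shJARID2 and 33.1 and 36.8 FPKM in shSCR. It was the highest of all members in both shSCR libraries, and the groups lay far apart. The fold change was the most negative among the members, within its error of that of TBX1 (log2 fold change -1.45, SE 0.067, adjusted p = 0.0014), and remained called after GC correction (-0.92). FOXA1 had 1.86 and 1.94 FPKM in shJARID2, against 2.97 and 2.75 FPKM in shSCR. Its fall of -0.41 (adjusted p = 0.022) turned to 0.17, not called, with the correction, and it was lost when any 1 library was left out. FOXA3, a liver and gut member, was low, at 0.247 and 0.534 FPKM in shJARID2 and 0.824 and 0.592 FPKM in shSCR.

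FOXM1 drives genes of the G2 and M phases of the cell cycle. It had 20.7 and 23.1 FPKM in shJARID2 and 32.8 and 31.1 FPKM in shSCR, with no overlap (log2 fold change -0.53, SE 0.070, adjusted p = 0.0045, GC-corrected -0.22). Exons of ITFG2 on the other strand cover 15.9% of its exon bases, and whether reads were counted by strand is not stated, so the value of FOXM1 is uncertain. Of 24 FOXM1 targets, 10 rose and 9 fell with a median of 0.031 (all genes as above, 28% and 31.6%). With the GC correction 7 were called higher and 12 lower (median -0.14), beside 22.7% and 21.5% of all genes. CDC20, which activates the anaphase-promoting complex, measured 41.1 and 44.2 FPKM in shJARID2 and 96.6 and 102 FPKM in shSCR (-1.20, GC-corrected -0.75). PLK1, a mitotic kinase, fell by 1.18 (GC-corrected -0.73, 12.5% of exon bases shared with other genes) and UBE2C, a ubiquitin-conjugating enzyme, by 0.87 (GC-corrected -0.73). CKS2, a small subunit of cyclin-dependent kinases, went the other way, with 134 and 110 FPKM in shJARID2 against 33.3 and 33.9 FPKM in shSCR (1.83, GC-corrected 1.52). Among 5 tested partners in the MuvB complex, through which FOXM1 reaches its targets, LIN9 (0.57), LIN52 and LIN54 (0.43) rose and MYBL2 (-0.76) fell. Over all genes tested, 28% rose and 31.6% fell. After GC correction LIN9 (0.22) and LIN52 (0.36) stayed called, and the calls of LIN54 (0.10) and MYBL2 (-0.15) were lost. RBBP4, a histone-binding subunit named after its value was seen, became called with the correction (-0.26). The call of LIN52 (0.45) ended without shSCR replicate 1 and without shSCR replicate 2.

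FOXK1 and FOXK2 repress autophagy genes and bind the deubiquitinase BAP1. FOXK2 had 5.78 and 6.75 FPKM in shJARID2 and 14.2 and 14.5 FPKM in shSCR (log2 fold change -1.08, SE 0.084, adjusted p = 0.0016, GC-corrected -0.72). Exons of WDR45B and of other genes on the other strand cover 14.1% of its exon bases, which makes the value of FOXK2 uncertain too. For FOXK1 the values were 10.6 and 12.0 FPKM in shJARID2, against 15.6 and 16.3 FPKM in shSCR. It fell by 0.47 on the log2 scale (adjusted p = 0.0076), a call that was lost without shSCR replicate 2. After GC correction FOXK1 was at 0.091 and missed the threshold. The difference between FOXK1 and FOXK2 was not tested.

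Among the FOXP factors, which pair with each other through a leucine zipper, FOXP4 fell and FOXP1 and FOXP2 rose. FOXP4, an epithelial member, had 14.1 and 16.0 FPKM in shJARID2 and 28.4 and 30.5 FPKM in shSCR (log2 fold change -0.92, SE 0.079, adjusted p = 0.0018). Its transcripts average 63.3% GC, and the GC-corrected fall was -0.16 (adjusted p = 0.046). FOXP1, with roles in B cells, heart and breast, measured 16.0 and 15.7 FPKM in shJARID2 and 14.3 and 13.4 FPKM in shSCR (0.18, adjusted p = 0.046, GC-corrected 0.22). FOXP2, known for its role in speech circuits, was lower in level, with 1.51 FPKM in both shJARID2 libraries against 0.847 and 0.853 FPKM in shSCR (0.44, adjusted p = 0.033). The rises of FOXP1 and FOXP2 were lost when any 1 library was left out, that of FOXP2 also after GC correction (0.28) and that of FOXP1 also with no filter on low values. FOXP3, the factor of regulatory T cells, stayed below the filter, at 0.554 and 0.590 FPKM in shJARID2 and 0.829 and 1.73 FPKM in shSCR. The difference between FOXP members was not tested.

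FOXN2 was the member with the highest mean and the largest rise. It measured 42.9 and 39.3 FPKM in shJARID2 and 23.0 and 20.6 FPKM in shSCR, a ratio of means of 1.89. Both shJARID2 libraries lay well above both shSCR libraries (log2 fold change 0.89, SE 0.078, adjusted p = 0.0019, GC-corrected 0.57). FOXN2 spans 48314637 to 48379294 of chromosome 2 (GRCh38, + strand), no exon base is shared with another gene in GENCODE release 29, and its transcripts have the lowest GC content of all tested members (41.2%). FOXN3, a checkpoint-related repressor, had 10.6 FPKM in both shJARID2 libraries and 12.3 and 11.9 FPKM in shSCR. Its small fall (-0.18, adjusted p = 0.040) was lost after GC correction (-0.14), with 3 other scalings of the libraries and when any 1 library was left out. Exons of other genes cover 10.1% of its exon bases.

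FOXJ2 and FOXJ3 are broadly expressed, unlike FOXJ1, the factor of motile cilia. FOXJ3 had 22.4 and 21.3 FPKM in shJARID2 and 17.5 and 17.2 FPKM in shSCR (log2 fold change 0.32, SE 0.050, adjusted p = 0.0069). After GC correction it was at 0.024, and without shSCR replicate 2 it did not pass. FOXJ2 measured 8.84 and 10.1 FPKM in shJARID2 and 10.8 and 10.2 FPKM in shSCR, and the difference missed the threshold (-0.14, adjusted p = 0.19). After GC correction FOXJ2 was at 0.16, also not called.

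The FOXO factors act downstream of insulin and PI3K signalling, where AKT phosphorylation moves them out of the nucleus. FOXO3 measured 13.7 and 13.3 FPKM in shJARID2 and 12.5 and 13.7 FPKM in shSCR (log2 fold change 0.041, SE 0.063, adjusted p = 0.61). FOXO1 had 3.87 and 3.73 FPKM in shJARID2 and 3.51 and 3.70 FPKM in shSCR (0.060, SE 0.078, adjusted p = 0.54). Neither passed the test in any alternative, with ranges from -0.017 to 0.099 for FOXO3 and from -0.041 to 0.16 for FOXO1. The GC-corrected values were 0.053 for FOXO3 and -0.041 for FOXO1. FOXO4 had 1.19 and 0.952 FPKM in shJARID2, against 2.26 and 1.92 FPKM in shSCR (-0.58, adjusted p = 0.021), and its call ended after GC correction (-0.067). It was also lost without shSCR replicate 1, without shSCR replicate 2, without shJARID2 replicate 2, with no filter on low values and with quantile normalization. FOXO6, a neuronal member, was low, with 0.0966 and 0.358 FPKM in shJARID2 and 0.780 and 0.799 FPKM in shSCR.

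Of 25 tested regulators of FOXO proteins, 7 rose and 11 fell (median -0.023), beside 28% and 31.6% of all genes tested. After GC correction 3 were called higher and 12 lower, beside 22.7% and 21.5% of all genes. The 14-3-3 gene YWHAE, whose protein holds phosphorylated FOXO in the cytoplasm, had 20.9 and 22.1 FPKM in shJARID2 and 52.4 and 47.6 FPKM in shSCR (log2 fold change -1.18, GC-corrected -1.37). AKT1 fell by 0.86 on the log2 scale (GC-corrected -0.25), beside SFN (-0.96, GC-corrected -0.22) and YWHAG (-0.93, GC-corrected -1.06). Among 21 tested FOXO targets, 9 rose and 5 fell (median 0.13), beside the same 28% and 31.6%. After GC correction 6 were called higher and 5 lower, beside the same 22.7% and 21.5%. SOD2, also listed, was left out because only unique symbols were used, and a count that kept all rows gave 10 higher and 5 lower of 22. MAP1LC3B, an autophagosome protein gene, had 41.7 and 39.8 FPKM in shJARID2 and 23.8 and 20.7 FPKM in shSCR (0.85, GC-corrected 0.92). PINK1, a kinase of mitochondrial quality control, fell by 1.02 (GC-corrected -0.79), and 41.7% of its exon bases are shared with other genes. BCL6, a transcriptional repressor, fell by 0.83 (GC-corrected -0.76). KLF2, itself a transcription factor gene, stood at 1.11 and 0.851 FPKM in shJARID2 and 6.75 and 7.65 FPKM in shSCR (-2.05, GC-corrected -1.15). With a mean of 0.98 FPKM in shJARID2, KLF2 passed the filter only through shSCR.

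The other expressed FOX genes were FOXC1, FOXF2 and FOXD4. FOXC1, a factor of basal-like breast cancer, had 2.26 and 2.13 FPKM in shJARID2 and 2.35 and 2.72 FPKM in shSCR (log2 fold change -0.14, SE 0.11, adjusted p = 0.29). The GC-corrected value of FOXC1 was 0.24, also not called. FOXF2, known from mesenchyme, measured 0.819 and 0.860 FPKM in shJARID2 and 1.76 FPKM in both shSCR libraries. Its fall (-0.59, adjusted p = 0.014) was at 0.14 after GC correction, past the threshold no longer, and it was lost without shSCR replicate 1 and without shSCR replicate 2. FOXD4 had 0.704 and 1.31 FPKM in shJARID2 and 1.34 and 1.13 FPKM in shSCR, which overlap. Its log2 fold change was -0.17 and turned to 0.47 after GC correction, called under neither measure. Near-identical copies of FOXD4 exist, so its reads may have been shared, and FOXD4L1, FOXD4L3, FOXD4L4, FOXD4L5 and FOXD4L6 reached at most 1.19 FPKM.

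The 4 expressed SOX genes fell, where 31.6% of all genes tested did. Of these 4, 3 were called lower after GC correction, beside 21.5% of all genes. SOX4 had passed the filter only through shSCR. SOX9, a factor of cartilage, testis and epithelial progenitors, measured 9.05 and 9.45 FPKM in shJARID2 and 16.3 and 17.5 FPKM in shSCR, a ratio of means of 0.547. The groups did not overlap (log2 fold change -0.80, SE 0.060, adjusted p = 0.0015), and the GC-corrected value was -0.70 at a transcript GC content of 51.0%. SOX9 spans 72121020 to 72126420 of chromosome 17 (GRCh38, + strand) and shares no exon base with another gene. SOX4 and SOX12 belong to the SoxC group, which acts in neural, lymphoid and mesenchymal precursors. SOX12 had 2.05 and 2.26 FPKM in shJARID2 and 6.05 and 6.20 FPKM in shSCR (-1.18, SE 0.082, adjusted p = 0.0014, GC-corrected -0.48). SOX4 had 0.475 and 0.587 FPKM in shJARID2 and 1.73 and 1.74 FPKM in shSCR (-0.84, SE 0.13, adjusted p = 0.0066, GC-corrected -0.75). The third SoxC gene, SOX11, had 1 read in shJARID2 replicate 2 and none in the other libraries. SOX13, of the SoxD group, measured 6.68 and 7.55 FPKM in shJARID2 and 10.7 and 10.6 FPKM in shSCR (-0.53, adjusted p = 0.0054), but at 0.066 once GC-corrected it was not called. Its SoxD relatives were low, with SOX6 at 0.492 and 0.493 FPKM in shJARID2 and 0.532 and 0.459 FPKM in shSCR.

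Of 8 tested partners of SOX proteins, 2 rose and 4 fell, beside 28% and 31.6% of all genes tested. MITF, the melanocyte factor, rose by 0.65 (GC-corrected 0.50), and TCF7L1, a Wnt effector, had 1.21 and 1.34 FPKM in shJARID2 and 3.87 and 4.20 FPKM in shSCR (log2 fold change -1.15, GC-corrected -0.94). POU2F1 fell by 0.44 (GC-corrected -0.74), and TCF7 by 0.46, which turned to 0.084 after GC correction. The calls of MITF, POU2F1 and TCF7 ended without shSCR replicate 2, and that of TCF7 also without shSCR replicate 1. SOX2-OT was the only long noncoding RNA row found that is named for a member, and it stayed at or below 0.0773 FPKM.

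TBX1 was the only expressed TBX gene. It patterns the pharyngeal arches and heart outflow tract, and measured 1.28 and 0.871 FPKM in shJARID2 and 4.71 and 4.42 FPKM in shSCR, a ratio of means of 0.236. This was the lowest ratio among the expressed members (log2 fold change -1.43, SE 0.13, adjusted p = 0.0021). With a transcript GC content of 67.3%, the highest among them, its GC-corrected value was -0.50 and did not pass (adjusted p = 0.068). TBX19, a pituitary factor, lay just below the filter at 0.932 and 1.09 FPKM in shJARID2 and 0.796 and 0.711 FPKM in shSCR. TBX6, a factor of presomitic mesoderm, had 0.197 and 0.299 FPKM in shJARID2 and 0.596 and 0.492 FPKM in shSCR. TBX2 and TBX3, which repress senescence genes in breast cancer, had 4 and 6 reads in all. Of the T-box genes with other names, EOMES, TBR1 and TBXT stayed at or below 0.0732 FPKM. MGA, named after its value was seen, was expressed, at 12.3 FPKM in both shJARID2 libraries and 10.7 and 11.0 FPKM in shSCR. It was called higher (log2 fold change 0.17, adjusted p = 0.045), but not after GC correction (-0.11).

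GATA2, a haematopoietic and endothelial factor, was the only expressed GATA gene. It had 2.22 and 2.33 FPKM in shJARID2 and 4.65 and 4.89 FPKM in shSCR (log2 fold change -0.82, SE 0.082, adjusted p = 0.0024). After GC correction it was at -0.0027 (adjusted p = 0.98), at a transcript GC content of 64.8%. GATA3, the luminal factor, was low in both groups, with 0.202 and 0.386 FPKM in shJARID2 and 0.451 and 0.360 FPKM in shSCR, which overlap. GATA6 had 0.822 and 1.09 FPKM in shJARID2 and 0.638 and 0.705 FPKM in shSCR, and GATA6-AS1 and another gene cover 14.2% of its exon bases on the other strand. Of 8 tested partners of GATA proteins none rose and 6 fell (median -0.38), beside 28% and 31.6% of all genes tested. After GC correction 5 were called lower, beside 21.5% of all genes. MTA1, a subunit of the NuRD deacetylase complex, had 3.46 and 3.76 FPKM in shJARID2 and 11.8 and 12.4 FPKM in shSCR (-1.51, GC-corrected -0.84). LDB1, a bridging factor, fell by 0.89 (GC-corrected -0.29) and CHD4 by 0.44 (GC-corrected -0.34), and 53.5% of the exon bases of CHD4 are shared with other genes. ZFPM1, the cofactor known as FOG1, fell by 0.61 (adjusted p = 0.035), but was not called at its GC-corrected 0.22, nor without shSCR replicate 1, shSCR replicate 2 or shJARID2 replicate 1. The mean of ZFPM1 was 0.66 FPKM in shJARID2 and 1.54 FPKM in shSCR, so ZFPM1 passed the filter only through shSCR. Of the GATA-type zinc finger genes outside the numbered family, GATAD2A (-0.78, GC-corrected -0.35), GATAD2B (-0.30, GC-corrected -0.22) and TRPS1 (-0.33, GC-corrected -0.50) fell, and GATAD1 rose (0.39, GC-corrected 0.25, where the call was lost). The calls of TRPS1 and GATAD1 ended without shSCR replicate 1, without shSCR replicate 2 and without shJARID2 replicate 1, and that of GATAD2B without shSCR replicate 1.

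**Figure D2:**
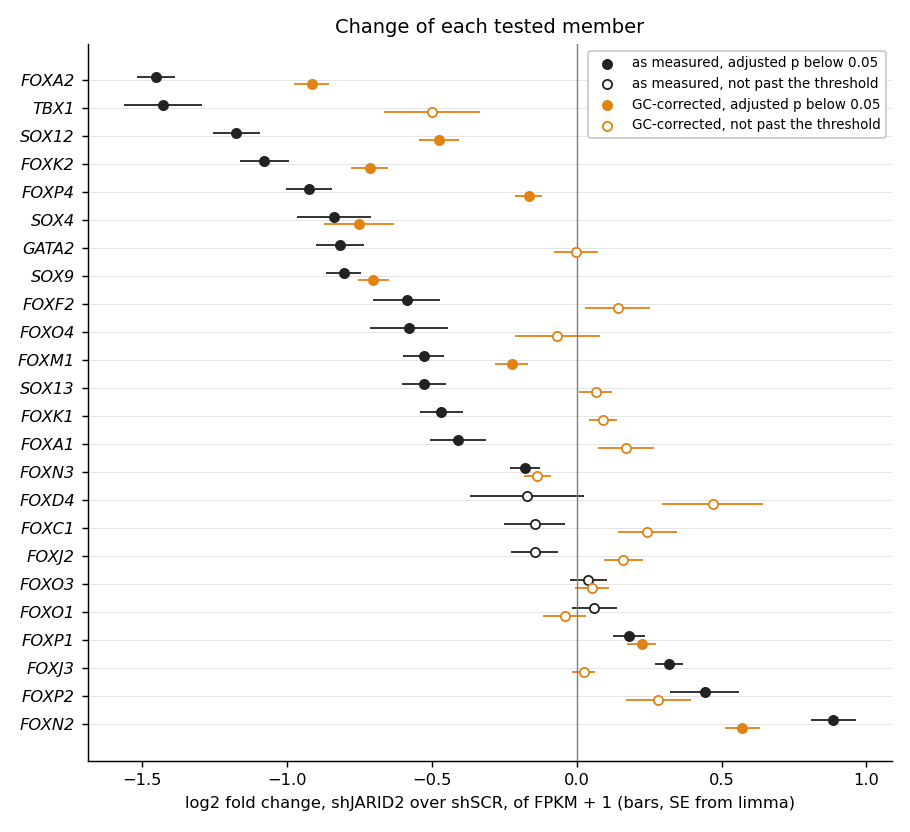
Log2 fold change (shJARID2 over shSCR, FPKM + 1) of the 24 tested members, as measured in black and GC-corrected in orange, with SE bars. Filled points have an adjusted p below 0.05. FOXA2, SOX12, FOXK2, FOXP4, SOX4, SOX9 and FOXM1 keep filled points left of 0 under both measures and FOXN2 and FOXP1 right of 0, while GATA2 moves from -0.82 to -0.0027.

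The tested members were richer in GC than tested genes at large. Their median transcript GC content was 55.8% (range 41.2% to 67.3%), beside 48.2% over all tested genes with a value, and 54.2% of them were above 55% GC, beside 28.2% of all. All 4 members that rose were among the 7 below 50% GC, whose median log2 fold change was 0.18, beside 0.25 for all 6784 tested genes below 50%. Among the 13 members at 55% GC or more, 11 fell and none rose, with a median of -0.59, beside -0.60 for all 3395 such genes. In between, at 50% to 55%, the members SOX4, SOX9 and FOXM1 fell and FOXJ2 did not pass, with a median of -0.67, beside -0.18 for all 1865 genes of that range. Across the 24 members Spearman's rho between transcript GC content and log2 fold change was -0.71, a description over genes that share the same 4 libraries.

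**Figure D3:**
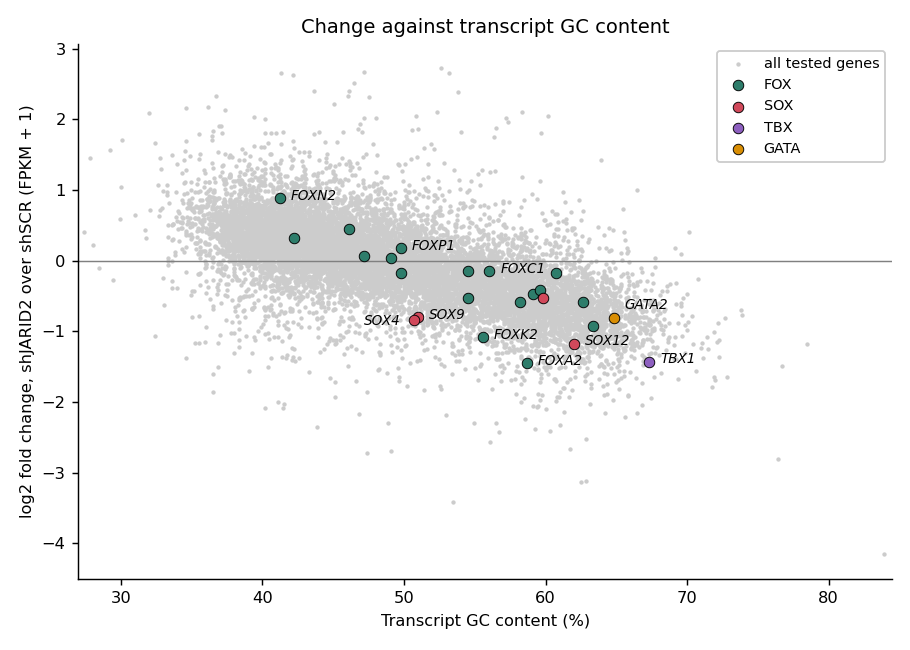
Log2 fold change (shJARID2 over shSCR, FPKM + 1) against transcript GC content in percent, for all tested genes in grey and the 24 tested members coloured by family. Members at 55% GC or more sit within the grey band at a median of -0.59, and SOX4 and SOX9, near 51% GC, lie in its lower part.

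Promoter windows, from 250 bases before to 50 after a RefSeq transcript start (GRCh38.p14), were found for 50 of the 72 members, 73 windows in all. Some mark alternative starts inside a gene, and 44 of the 50 members had a window whose start lay within 500 bases of the gene start in GENCODE release 29. Their median was 22 CpG dinucleotides per window, against 14 over all 35116 windows in the table, with 28 in windows of expressed members and 20 in those of low members. Windows of SOX12, FOXK2, SOX13 and FOXJ3 are shown because they lie at the gene start and run from many to few CpG among members that were called. The CpG dinucleotides are in capitals, and each window is written 5′ to 3′ on the gene's own strand, + for SOX12, FOXK2 and SOX13 and - for FOXJ3.
SOX12, chr20:325302-325601, 54 CpG: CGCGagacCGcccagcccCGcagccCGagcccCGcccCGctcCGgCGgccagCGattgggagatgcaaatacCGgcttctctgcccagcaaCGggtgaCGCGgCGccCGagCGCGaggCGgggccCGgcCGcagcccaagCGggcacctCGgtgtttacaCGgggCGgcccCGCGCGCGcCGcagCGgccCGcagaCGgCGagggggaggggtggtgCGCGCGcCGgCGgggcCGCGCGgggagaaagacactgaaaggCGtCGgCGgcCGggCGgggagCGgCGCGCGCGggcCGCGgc
FOXK2, chr17:82519482-82519781, 55 CpG: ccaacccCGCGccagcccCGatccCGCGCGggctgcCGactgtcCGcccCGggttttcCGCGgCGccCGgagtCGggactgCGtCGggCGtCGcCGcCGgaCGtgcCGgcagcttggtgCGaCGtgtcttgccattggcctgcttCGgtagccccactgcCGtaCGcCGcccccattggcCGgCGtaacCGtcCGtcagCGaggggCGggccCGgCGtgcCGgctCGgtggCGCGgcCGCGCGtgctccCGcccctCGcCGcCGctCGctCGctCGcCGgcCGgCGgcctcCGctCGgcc
SOX13, chr1:204072865-204073164, 15 CpG: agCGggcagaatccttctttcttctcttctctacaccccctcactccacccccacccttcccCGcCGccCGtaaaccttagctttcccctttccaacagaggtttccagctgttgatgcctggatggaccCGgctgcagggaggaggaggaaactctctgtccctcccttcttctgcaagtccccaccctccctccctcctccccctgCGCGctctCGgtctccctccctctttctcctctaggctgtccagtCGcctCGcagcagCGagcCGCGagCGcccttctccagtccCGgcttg
FOXJ3, chr1:42335831-42336130, 8 CpG: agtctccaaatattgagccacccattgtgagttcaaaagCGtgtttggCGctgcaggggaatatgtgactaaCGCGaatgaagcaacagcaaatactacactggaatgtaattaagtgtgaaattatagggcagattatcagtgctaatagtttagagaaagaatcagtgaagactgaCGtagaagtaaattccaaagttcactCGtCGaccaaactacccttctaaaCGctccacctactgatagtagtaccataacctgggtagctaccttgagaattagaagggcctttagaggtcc
SOX12, FOXK2 and SOX13 fell as measured, with 54, 55 and 15 CpG in these windows, and FOXJ3, with 8, rose as measured. FOXJ3 has other windows, with 41 and 38 CpG, at starts 642 and 922 bases inside the gene. Other called members went against this order. FOXP1 rose with 41 CpG in the window nearest its gene start, and SOX4 fell with 8 in its window, 983 bases inside. With alternative starts included, the median was 7 CpG over 11 windows of 3 members that rose and 27 over 13 windows of 12 members that fell. Several of the 11 lie far inside FOXP1 and FOXP2, from 2 CpG at 40436 bases to 51 CpG at 519069 bases inside FOXP1. Windows of the same gene are not separate members, and no window was found for FOXN2. A link between CpG and change was not tested. The forkhead motif TGTTTAC, searched on both strands, was present in 4 of the 73 members' windows (5.48%), SOX12 among them, and in 3.42% of all windows. The GATA motif AGATAA was present in 5.48% of members' windows and 10.3% of all, and the SOX motif ACAATG in 13.7% and 10.8%. The T-box motif GGTGTGA was present in 2.74% of members' windows and in 3.45% of all. A match describes the letters in the window and not a bound site.

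Of the 48 low members, 14 reached 0.3 FPKM in a library and 34 did not (at most 0.297 FPKM). SOX15, a factor of muscle and placenta, was the clearest of those that were lower, with 0.501 and 0.355 FPKM in shJARID2 and 1.63 and 1.44 FPKM in shSCR, or 10 and 7 reads against 39 and 36. With no filter on low values it was called (log2 fold change -0.83, adjusted p = 0.026, limma over 25133 rows), as were SOX7 (0.19, adjusted p = 0.049) and FOXN1 (0.060, adjusted p = 0.0497, from 4 reads in all). In that fit 11.2% of all rows were called higher and 13.4% lower. No GC-corrected value was computed for low members. Transcript GC content was 63.3% in SOX15, 52.1% in SOX7 and 62.9% in FOXN1. SOX18, a factor of vessels and lymphatics, had 0.166 and 0.293 FPKM in shJARID2 and 0.658 and 0.563 FPKM in shSCR, and was not called. SOX7, its relative of the SoxF group, had 17 reads in each shJARID2 library and 12 in each shSCR library, and PINX1 shares 39.4% of its exon bases. FOXR1 had 0.562 and 0.442 FPKM in shJARID2 and 1.41 and 0.699 FPKM in shSCR. FOXH1, a partner of SMAD proteins, and SOX21, a neural factor, ranged from 0.111 to 0.281 FPKM in shJARID2 and from 0.0890 to 0.438 FPKM in shSCR. In 10 low members both shJARID2 libraries lay above both shSCR libraries and in 10 both lay below, where 17.7% and 17.1% of all rows under 1 FPKM did so.

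At the lowest end, 25 members had 6 reads or fewer in the 4 libraries together, and 7 of them had 1 read. These members held 40 and 22 reads in shJARID2 replicates 1 and 2 and 4 and 13 reads in shSCR replicates 1 and 2. The shSCR libraries were deeper. The same sum over all genes with 6 reads or fewer was not taken. FOXD2, whose 20 reads were all in shSCR, lies outside this cut. TBX3 and TBX5, the factors of limb and heart development, each had 4 and 2 reads in shJARID2 and none in shSCR. GATA4, a heart and endoderm factor, had 4 and 1 reads in shJARID2 and none in shSCR, and FOXN1, the thymus factor, had 2 in each shJARID2 library and none in shSCR. In all, 15 members had reads in shJARID2 only and 3 (FOXD2, FOXL1 and FOXL2) in shSCR only. Those are 20.8% and 4.17% of the members, where 11% and 5.95% of all 24215 rows with a symbol and a gene length had reads in shJARID2 only and in shSCR only. These shares are over members and rows of any level. Low ones were commoner among members, as 33.3% of members and 49.6% of all rows with a symbol were expressed. The same shares among low rows alone were not computed. FOXD2 went against the majority, with 0 reads in both shJARID2 libraries and 5 and 15 reads in shSCR. The number of rows with a read was itself uneven, at 19840 and 20406 in shJARID2 and 18628 and 19911 in shSCR, and its part in these counts was not tested. With at most 4 reads per library, each of these values rests on single reads, that of FOXN1 included, and reads are not independent molecules.

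**Figure D4:**
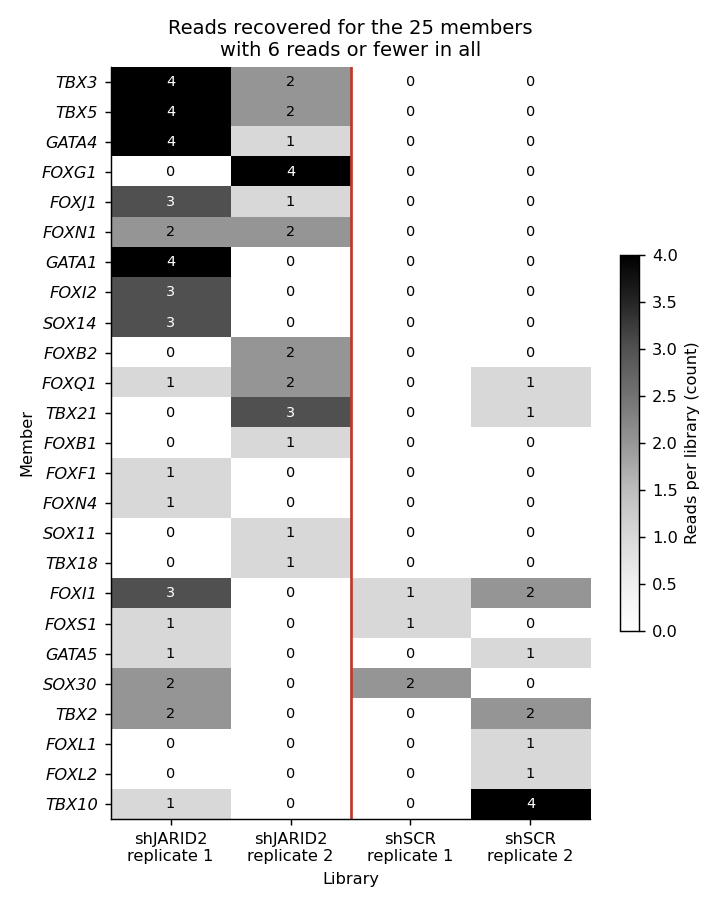
Reads recovered from FPKM in each library (columns, shJARID2 left of the red line and shSCR right of it) for the 25 members with 6 reads or fewer in all (rows). Grey shade and number give the read count. The shJARID2 columns hold 40 and 22 reads and the shSCR columns 4 and 13.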

How the data were processed

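Each library had its own table of 85553 rows, holding FPKM as deposited by the authors. The submitters' processing notes name Trimmomatic, HISAT2, featureCounts and SAMtools. For versions, build, annotation, strand and multiply matched reads, the answer is not given in the sources used here. Rows without a symbol (60420) were left out. Exon lengths, GC content and overlaps came from GENCODE release 29 (24215 rows matched). FPKM times exon length fell on whole reads within 0.05 for 95.9% to 96.4% of values up to 20 reads, which gave the depths. FOXC2 and SOX5 did not fall on whole reads. Their read numbers are rounded.

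Rows with a mean of at least 1 FPKM were log-transformed as log2(FPKM + 1) and tested in R 4.3.3 by limma 3.58.1 (trended prior variance), with no term besides group. GC correction subtracted, in each library, a loess smooth (span 0.3, degree 2) of each gene's deviation from its mean on transcript GC content (the median over a gene's transcripts). Simulated reads with known changes were used to test the steps. Every member is accounted for. Expressed members are named with all 4 values, low members where a library reached 0.3 FPKM, and up to 4 called genes per list by size of change. Members and lists were chosen with earlier results of these data known. The alternatives in the closing section changed pseudocount, filter, scaling, test, GC correction, replicate term and libraries. Another 12 genes of GENCODE release 29 have symbols that match the rule and were not analysed here.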

Additional observations from a re-analysis of the deposited data

How the results depend on the processing

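With the GC correction the number of members called fell to 2 higher and 7 lower, and that of all genes called lower to 2584, against 4, 15 and 3941 without it. The cause was not tested. A replicate block gave 3 members higher and 14 lower, with the calls of FOXP2 and FOXN3 lost. With the block and the GC correction together they were 2 and 6, with 2333 of all genes lower. Set against the GC correction alone, FOXP4 and FOXM1 were then not called and TBX1 (-0.50, adjusted p = 0.041 by limma) was. Over 12455 genes the differences between replicates 2 and 1 had a correlation of 0.029 between the groups, so libraries of the same number shared little deviation. The labels do not say whether they were processed as pairs, and this value cannot decide it. Some named genes called as measured changed sign under both GC-corrected fits. FOXA1 turned to 0.17, FOXF2 to 0.14, FOXK1 to 0.091, SOX13 to 0.066, TCF7 to 0.084 and ZFPM1 to 0.22, none of them past the threshold. Of the members not called as measured, FOXC1, FOXJ2, FOXD4 and FOXO1 also changed sign with the GC correction, and were not called. Leaving out 1 library gave 1 to 2 members higher and 10 to 13 lower, with the fewest without shSCR replicate 2, 2168 to 3068 in all genes called higher and 2462 to 3763 in all genes called lower. Leaving out FOXM1, FOXK2 and FOXN3, which share at least 10% of exon bases with other genes, and FOXD4 gave 4 higher and 12 lower of 20, a choice made after seeing the data. The 7 members that stayed lower with the GC correction alone were FOXA2, SOX4, SOX9, SOX12, FOXK2, FOXP4 and FOXM1, and the 2 higher were FOXN2 and FOXP1. The fall of JARID2 was called under each of the 16 alternatives. Over the shJARID2 libraries alone 3 members were at 0, and over the shSCR libraries alone 15 were at 0 and 31 were low. Depth limits the low members most where reads are few, as in the 25 with 6 reads or fewer, whose values rest on single reads.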
